A study of Danio rerio with 6 samples.

Results

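Neural progenitors divide along the ventricles of the embryonic brain, spinal cord and eye and give rise to neurons and glia. Transcription factors of the SoxB1 group keep these cells undifferentiated, Pax6 patterns the forebrain, hindbrain and eye, and radial glia, the progenitors that span the wall of the neural tube, carry intermediate filaments and a brain-type fatty acid binding protein. The 10 genes described here were chosen by symbol: the SoxB1 genes sox2, sox3, sox19a and sox19b, the Pax6 copies pax6a and pax6b, the intermediate filament genes nes (nestin) and gfap (glial fibrillary acidic protein), the Musashi RNA-binding protein gene msi1, and fabp7a, for the brain-type fatty acid binding protein. All 10 had a single row among the 35197 rows of the count table, and all 10 passed the filter on low counts. Their counts were whole numbers in all 6 libraries, so none was divided with another row. The symbol msi1 is a synonym of both msi1a and msi1b in a RefSeq gene table of assembly GRCz12tu, and which copy the row holds was not determined.

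The data are RNA sequencing of untreated whole zebrafish embryos aged 48 hours (hours post-fertilization, hpf), with 3 libraries from homozygous dnajc21 mutants and 3 from wildtype embryos. Dnajc21 is a co-chaperone of late steps in large ribosomal subunit assembly. Between 30 and 50 embryos were pooled for each library. The wildtype columns are named casper, a pigment-deficient strain. The labels give neither the strain of the mutants, nor the lesion, nor whether pools came from separate clutches. Differences between mutant and wildtype libraries therefore cannot be told apart from differences of strain or clutch. The p-values here reflect only variation among these libraries, and that variation may be technical.

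Libraries held 9826896 to 11798482 counts in mutants and 8600922 to 10635690 in wildtype embryos. The targeted gene was lower in mutants, with dnajc21 at 18.0 ± 1.48 CPM (counts scaled to the library total with TMM factors) in mutants and 26.1 ± 4.27 CPM in wildtype embryos (SD, n = 3 each; adjusted p = 0.00492 by edgeR's quasi-likelihood test with Benjamini-Hochberg adjustment). Wildtype libraries were spread more widely than mutant ones. On the second principal component they ran from -38.73 in replicate 1 to 32.71 in replicate 2, and the mutants from -3.99 to 5.19. Across 20229 genes tested, 11.7% were called at an adjusted p under 0.05, 5.85% higher and 5.87% lower in mutants, and the median log2 fold change was -0.0057. Markers of other tissues of the whole embryo were detected: the 26 muscle, epidermis, blood and vessel genes summed to 47384.5, 48653 and 48150 CPM in the mutants, against 47526.6, 43834.1 and 44830.4 CPM in wildtype embryos.

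The 10 genes did not move as a block. Expression of fabp7a fell by more than that of any other member, while sox19b, nes and sox19a rose, and 6 members did not pass the test. In all, 4 of 10 were called, or 40%, beside 11.7% of all genes. Of these, 3 were higher, beside a background of 5.85%, and 1 was lower, beside 5.87%. The members were chosen with earlier results of these data known, so these shares are no test of the group. The groups did not overlap in 5 members, 4 of them higher and 1 lower in mutants. Of all genes tested, 30.5% showed such a separation, 15.1% higher and 15.4% lower. The median log2 fold change of the 10 was 0.096. With any 1 of the 3 mutant libraries or wildtype replicate 2 left out, 2 members were called, sox19b higher and fabp7a lower. Calls over all genes fell as well, from 1184 higher and 1188 lower. Without 1 mutant library they were 615 to 715 higher and 627 to 739 lower, and without wildtype replicate 2 they were 1086 and 1022.

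**Figure D1:**
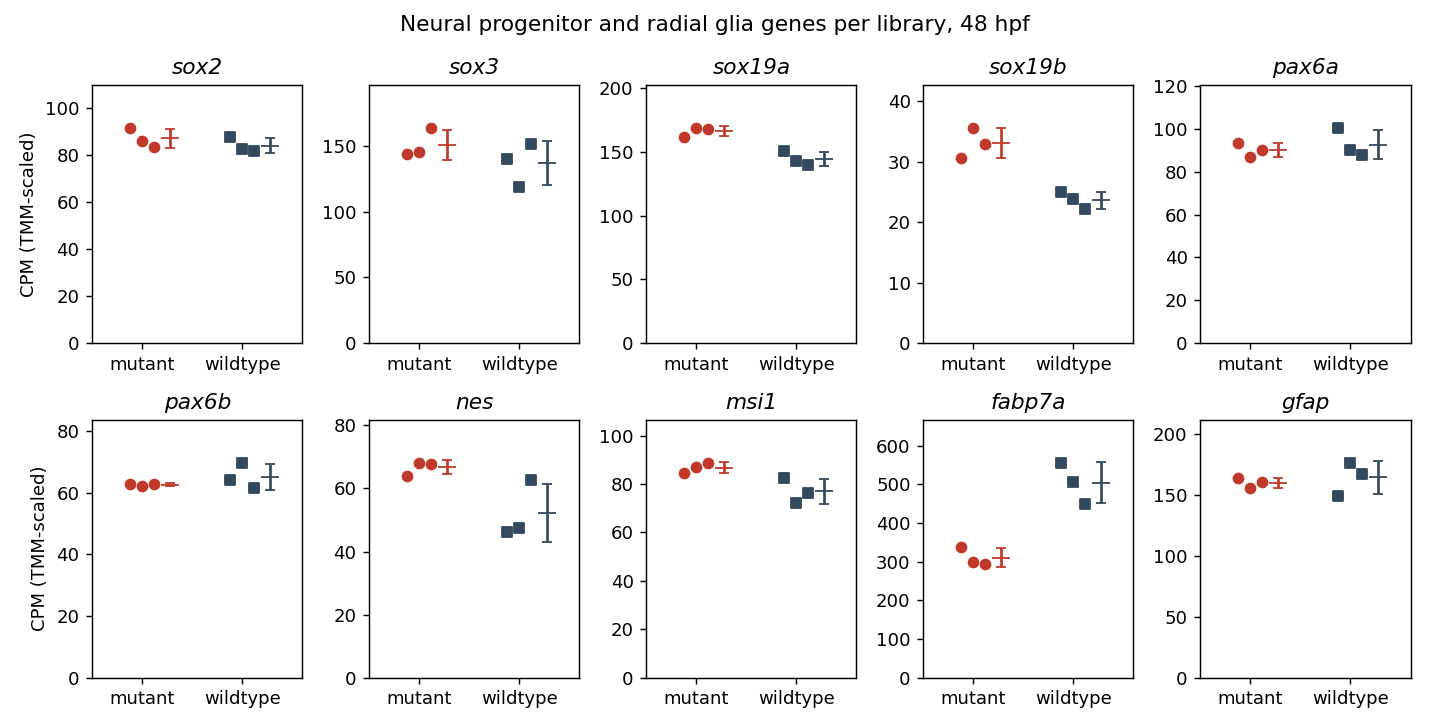
Level of each of the 10 genes in every library (vertical axes: CPM scaled by TMM factors, each starting at 0; mutant circles left, wildtype squares right; crosses with bars: mean and SD of 3 libraries). The mutant libraries lie below all wildtype libraries for fabp7a and above all of them for sox19a, sox19b, nes and msi1; the groups overlap for the other 5 genes.

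The fatty acid binding protein gene fabp7a had the largest difference of the 10. Its product binds fatty acids in radial glia and is used as a marker of these cells. It measured 338.77, 298.50 and 293.04 CPM in mutant replicates 1 to 3, against 555.73, 504.74 and 449.70 CPM in wildtype replicates 1 to 3. All 3 mutant libraries were lower than the lowest wildtype library. The level in mutants was 0.616 times that of wildtype embryos (95% interval 0.548 to 0.693), a log2 fold change of -0.70 (SE 0.08, edgeR adjusted p = 2.82e-05). The row of its paralogue fabp7b held 6.74, 4.91 and 6.92 CPM in mutants and 5.50, 6.53 and 5.07 CPM in wildtype embryos, and did not pass (log2 fold change 0.13, SE 0.19, edgeR adjusted p = 0.727). Added together, the pair measured 316.3 ± 25.4 CPM in mutants and 509.1 ± 53.3 CPM in wildtype embryos (SD over 3 libraries each), and their log2 fold change was -0.69 (edgeR adjusted p = 3.23e-05).

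The other marker of radial glia, gfap, which encodes an intermediate filament of glia, did not show this difference. It measured 163.78, 155.60 and 160.54 CPM in mutants, against 149.44, 176.53 and 167.24 CPM in wildtype embryos. The mutant values lay within the wildtype range. Its log2 fold change was -0.04 (95% interval -0.189 to 0.109, edgeR adjusted p = 0.783), so the interval leaves room for a level 0.877 to 1.08 times that of wildtype embryos. Within a library, the log2 ratio of fabp7a to gfap counts was 1.048, 0.940 and 0.868 in mutants, against 1.894, 1.515 and 1.427 in wildtype embryos. This ratio does not depend on the scaling between libraries. All mutant ratios were below all wildtype ratios, a difference of -0.66, and the 2-sided exact permutation test gave p = 0.1, the smallest that 3 libraries against 3 can give (adjusted p = 0.2 over 4 ratios).

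Members carried different weights in their sum. Of all counts on the 10 rows, fabp7a took 27.4%, 25% and 24.2% in mutants, against 39.6%, 38.0% and 34.6% in wildtype embryos. The 10 rows summed to 1235.4, 1194.3 and 1212.5 CPM in mutants, against 1402.1, 1329.3 and 1301.1 CPM in wildtype embryos. Without fabp7a the order of the groups turned round: the other 9 summed to 896.7, 895.8 and 919.5 CPM in mutants, against 846.4, 824.6 and 851.4 CPM in wildtype embryos. In RNA from whole embryos, fewer cells of a type and less RNA per cell cannot be told apart.

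**Figure D2:**
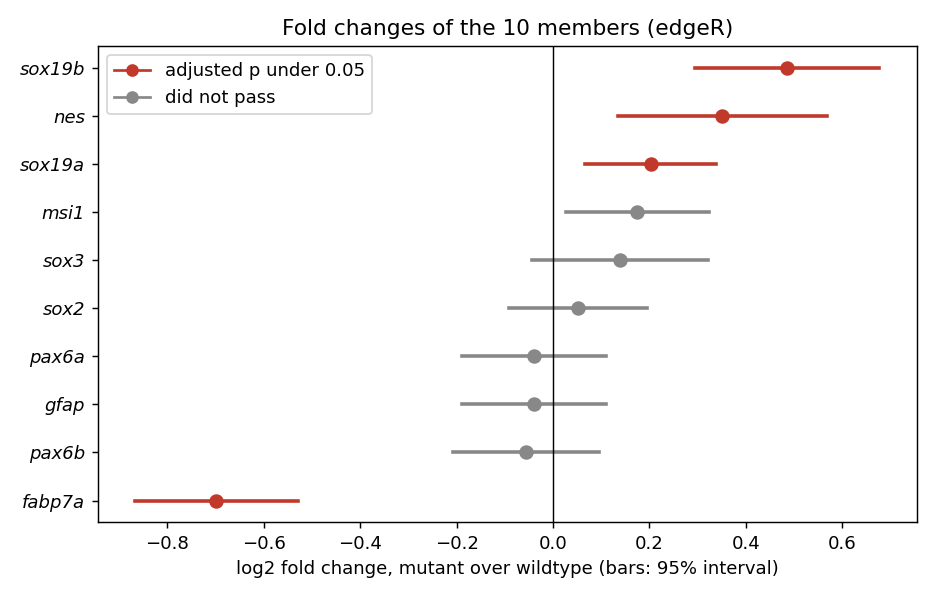
Log2 fold change of mutant over wildtype for each of the 10 genes (points) with its 95% interval from the edgeR fit (bars); red marks an adjusted p under 0.05. The interval of fabp7a lies wholly below 0 and those of sox19b, nes, sox19a and msi1 wholly above it, msi1 without passing after adjustment.

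Among the SoxB1 genes, whose factors hold progenitors in the undifferentiated state, the sox19 pair rose and sox2 and sox3 did not pass. The gene sox19b, a fish SoxB1 gene whose RNA is laid down in the egg, measured 30.67, 35.62 and 33.01 CPM in mutants, against 24.93, 23.78 and 22.19 CPM in wildtype embryos. Every mutant library exceeded every wildtype library. The level in mutants was 1.40 times that of wildtype embryos (95% interval 1.23 to 1.6; log2 fold change 0.49, SE 0.09, edgeR adjusted p = 0.00176). Its paralogue sox19a, expressed in the neural plate and central nervous system, measured 161.68, 168.80 and 168.30 CPM in mutants, against 150.72, 143.00 and 139.71 CPM in wildtype embryos. These groups also stood apart, but the difference was small, at 1.15-fold (log2 fold change 0.20, SE 0.06, edgeR adjusted p = 0.0487). Under 15 alternative settings the log2 fold change stayed between 0.181 and 0.237, but the call was close to the threshold. It ended without mutant replicate 1, 2 or 3 (adjusted p = 0.0998, 0.182 and 0.167) and without wildtype replicate 2 or 3 (0.0841 and 0.132), and also with library totals alone as the scaling (0.0606), with no filter on low counts (0.0622) and without robust weights (0.0780).

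Within a library, the log2 ratio of sox19a to sox19b counts was 2.397, 2.243 and 2.349 in mutants, against 2.593, 2.585 and 2.652 in wildtype embryos. All mutant ratios were lower, by 0.281 on average on the log2 scale, again at the smallest p that the exact permutation test allows (p = 0.1, 2-sided; adjusted p = 0.2). As a sum, the pair measured 199.4 ± 6.27 CPM in mutants and 168.1 ± 6.98 CPM in wildtype embryos (SD over 3 libraries each), and their log2 fold change was 0.25 (SE 0.06; edgeR adjusted p = 0.0182).

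For sox2, which marks neural stem cells and progenitors, values were 91.66, 86.19 and 83.68 CPM in mutants, against 87.77, 82.86 and 81.69 CPM in wildtype embryos. The groups overlapped (log2 fold change 0.05, 95% interval -0.091 to 0.196, edgeR adjusted p = 0.687). Its relative sox3 measured 143.98, 145.46 and 164.10 CPM in mutants, against 140.54, 119.02 and 152.14 CPM in wildtype embryos (log2 fold change 0.14, 95% interval -0.043 to 0.322, edgeR adjusted p = 0.334). Wildtype replicate 2 had the lowest sox3 value and mutant replicate 3 the highest. The log2 ratio of sox2 to sox3 averaged -0.79 ± 0.16 in mutants and -0.70 ± 0.19 in wildtype embryos (SD, n = 3 each; exact permutation p = 0.6, adjusted p = 0.8), a difference of -0.09, smaller than either SD. The 4 SoxB1 rows together held 428.0, 436.1 and 449.1 CPM in mutants, against 404.0, 368.7 and 395.7 CPM in wildtype embryos, with no overlap; this sum was given no test.

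Neither Pax6 copy passed the test. Pax6 is a paired-box and homeobox factor of brain and eye development that is also used in lens and endocrine pancreas. Expression of pax6a was 93.27, 86.81 and 90.32 CPM in mutants, against 100.52, 89.97 and 87.67 CPM in wildtype embryos (log2 fold change -0.04, 95% interval -0.189 to 0.110, edgeR adjusted p = 0.784). Expression of pax6b was 63.02, 62.14 and 62.93 CPM in mutants, against 64.01, 69.79 and 61.70 CPM in wildtype embryos (log2 fold change -0.06, 95% interval -0.208 to 0.096, edgeR adjusted p = 0.687). The groups overlapped for both copies. Summed, the copies gave a log2 fold change of -0.05 (SE 0.07, edgeR adjusted p = 0.713), and their log2 ratio averaged 0.523 ± 0.042 in mutants and 0.508 ± 0.142 in wildtype embryos (SD, n = 3 each; exact permutation p = 0.9).

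**Figure D3:**
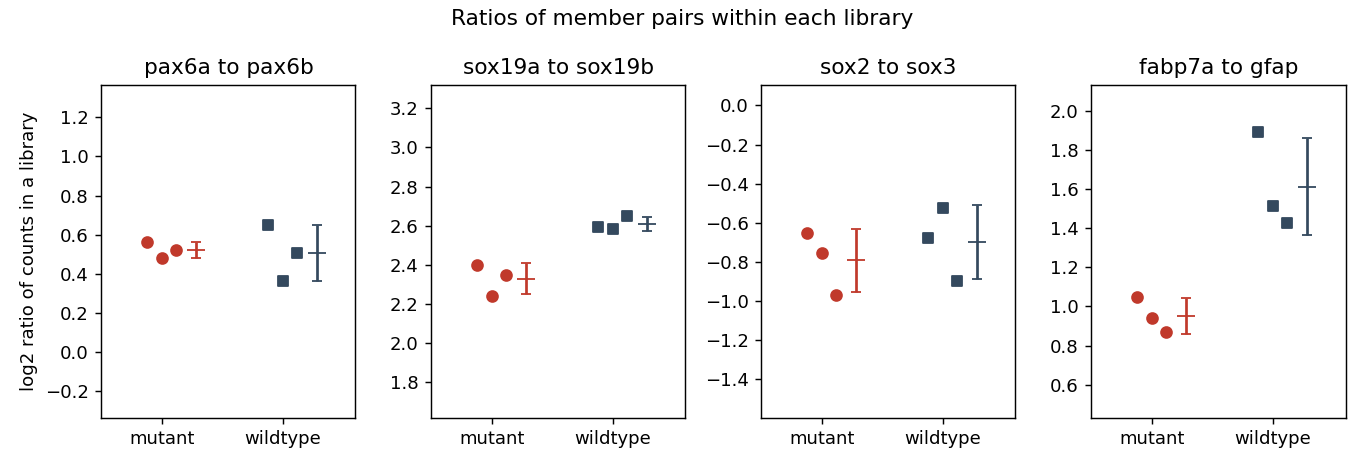
Log2 ratio of the counts of 4 pairs of members within each library (mutant circles left, wildtype squares right; crosses with bars: mean and SD of 3 libraries; each vertical axis spans the same log2 range). The ratios of sox19a to sox19b and of fabp7a to gfap are lower in all 3 mutants than in all 3 wildtype libraries, by 0.281 and 0.660; the other pairs overlap.

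Nestin, the intermediate filament protein of neural progenitors, is encoded by nes. It measured 64.11, 68.18 and 67.79 CPM in mutants, against 46.11, 47.57 and 62.72 CPM in wildtype embryos. The mutant libraries were close together, and wildtype replicate 3 lay nearer to them than to the other wildtype libraries. The level in mutants was 1.28 times that of wildtype embryos (95% interval 1.1 to 1.48; log2 fold change 0.35, SE 0.10, edgeR adjusted p = 0.0371). Its call ended without mutant replicate 1, 2 or 3 (adjusted p = 0.0848, 0.149 and 0.138), without wildtype replicate 1 or 2 (0.0982 and 0.121), with library totals alone (0.0657) and without robust weights (0.0578). Without wildtype replicate 3 the log2 fold change was 0.51 (adjusted p = 0.000673). Under the 15 alternative settings this fold change ran from 0.275 to 0.511.

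The Musashi gene msi1, for an RNA-binding protein that regulates translation in progenitors, measured 84.50, 87.01 and 88.83 CPM in mutants, against 82.38, 72.04 and 76.35 CPM in wildtype embryos. The mutant libraries were all higher, by 1.13-fold (95% interval 1.02 to 1.25), and the difference did not pass after adjustment (log2 fold change 0.17, SE 0.07, edgeR adjusted p = 0.122). It passed without wildtype replicate 1 (log2 fold change 0.23, adjusted p = 0.0330). Neither of the Musashi 2 copies passed, with log2 fold changes of -0.42 for msi2a (edgeR adjusted p = 0.0571) and 0.01 for msi2b (adjusted p = 0.945).

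**Figure D4:**
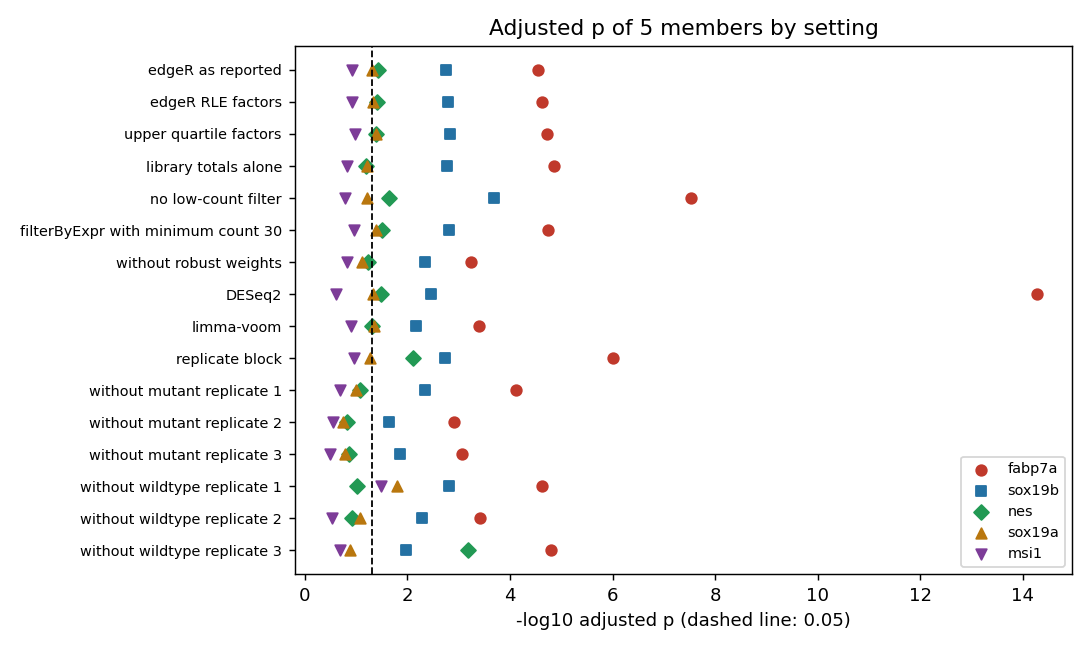
Adjusted p of 5 members under the fit as reported and 15 alternative settings (horizontal axis: -log10 adjusted p; dashed line: 0.05, with called values to its right). The symbols of fabp7a and sox19b lie right of the line in every setting, those of nes and sox19a on either side of it, and msi1 right of it only without wildtype replicate 1.

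The observed spread between replicates differed among the members. The coefficient of variation of CPM ran from 0.774% for pax6b to 8.06% for fabp7a over the mutants, and from 3.83% for sox2 to 17.6% for nes over the wildtype libraries. Counting noise was not taken out of these values. The pax6b row held 748, 607 and 673 counts in the mutants, too few for 0.774% to measure how steady its expression was. Deviations of the libraries from their group means showed no common direction: of 45 pairs of members, 25 were positively correlated over the 6 libraries, with a median r of 0.016. Single r values ran from -0.938 to 0.923. Both members of a pair are read from the same 6 libraries and share the depth and scaling of each library. The r values therefore describe these libraries and carry no p.

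Of 37 other genes of progenitors and radial glia tested, 5 were higher and 0 lower in mutants by edgeR at the adjusted threshold. That is 13.5% of them, beside 11.7% of all genes called in either direction and 5.85% called higher. Of the 37 fold changes, 21 were positive, with a list median of 0.013. Without mutant replicate 2 or 3 the number higher was 3 or 2, where the number over all genes fell from 1184 to 615 or 678. Without wildtype replicate 1, 2 were lower, beside 1282 of all genes. At an unadjusted p under 0.05, 6 were higher and 3 lower, where 5160 of all 20229 genes reached that level in either direction. DESeq2 and limma-voom called 0 lower. The glutamate transporter gene slc1a3a, of astroglia and radial glia, averaged 134.8 ± 10.6 CPM in mutants and 105.1 ± 7.72 CPM in wildtype embryos (SD, n = 3 each; log2 fold change 0.36, edgeR adjusted p = 0.00442), and this call ended without mutant replicate 3 (0.0522). The RNA-binding protein gene lin28a, of early undifferentiated cells, averaged 14.0 ± 0.984 CPM in mutants and 9.51 ± 0.485 CPM in wildtype embryos (0.56, adjusted p = 0.00564). The receptor gene notch3 averaged 398.8 ± 26.8 CPM in mutants and 325.3 ± 24.1 CPM in wildtype embryos (0.29, adjusted p = 0.0106), a call that ended without mutant replicate 2 (0.103) or 3 (0.0560). The Notch target her4.1 rose as well (0.61, adjusted p = 0.000699), on a row with non-whole counts in 6 libraries. Added to its 3 neighbours in name, her4.2 to her4.4, the 4 rows did not pass (log2 fold change 0.30, adjusted p = 0.0590), and the groups overlapped, so the direction of her4.1 alone is uncertain.

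Retinal progenitor and Müller glia genes, from a tissue where Pax6 also acts, moved in both directions, with 3 higher and 3 lower of 25 tested, or 24% called beside 11.7% of all genes (5.85% higher, 5.87% lower). The number higher was 6 without wildtype replicate 1, 1 without wildtype replicate 2, and 1 without any single mutant library, and the number lower was 1 or 2 with mutant replicate 2 or 3 left out. In the same settings 1376, 1086 and 615 to 715 of all genes were higher, and 627 or 678 were lower. The retinal homeobox gene rx1 averaged 21.7 ± 1.80 CPM in mutants and 14.1 ± 2.05 CPM in wildtype embryos (log2 fold change 0.63, edgeR adjusted p = 0.00195). The homeobox gene six7, which in zebrafish acts in cone photoreceptors, averaged 7.25 ± 1.82 CPM in mutants and 14.7 ± 0.965 CPM in wildtype embryos (-1.0, adjusted p = 0.000334). The eye genes mab21l2 (-0.30, adjusted p = 0.00775) and mab21l1 (-0.29, 0.0138) fell. The mab21l2 call ended without mutant replicate 2 (0.0834), and the mab21l1 call without mutant replicate 2 (0.120) or 3 (0.0949).

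At the adjusted threshold, proneural and neurogenesis genes were called no more often than genes at large. Of 27 tested, 1 was higher and 2 were lower, or 11.1% beside 11.7% of all genes, and 14 had positive fold changes. At an unadjusted p under 0.05, 6 were higher and 5 lower, a larger share than the 5160 of all 20229 genes in either direction. The Delta ligand gene dlc rose (log2 fold change 0.25, edgeR adjusted p = 0.0424), and neurod1 (-0.35, 0.0206) and scrt1a (-0.27, 0.0322), for factors of differentiating neurons, fell. None of the 3 calls held with each library left out in turn. Leaving out any library but wildtype replicate 1 ended that of dlc (0.0787 to 0.199), that of neurod1 ended without mutant replicate 2 (0.126) or 3 (0.118) or wildtype replicate 1 (0.0564), and that of scrt1a without mutant replicate 2 (0.188) or 3 (0.165) or wildtype replicate 1 (0.0569) or 3 (0.131).

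Of 35 genes of postmitotic neurons, 0 were higher and 9 lower in mutants by edgeR. That is 25.7% of them, beside 5.87% of all genes called lower. Of the 35 fold changes, 10 were positive, and the list median was -0.083. At an unadjusted p under 0.05, 1 was higher and 12 were lower, beside 5160 of all 20229 genes in either direction. DESeq2 called 0 higher and 9 lower, beside 727 of all genes lower. With limma-voom 0 were higher and 7 lower, beside 1012 of all genes lower. The number lower was 6, 4 or 4 without mutant replicate 1, 2 or 3 and 6 without wildtype replicate 2. Over all genes these settings called 739, 627, 678 and 1022 lower, against 1188 with all libraries. The SNARE gene snap25b, of synaptic vesicle fusion, averaged 22.2 ± 0.970 CPM in mutants and 30.4 ± 2.61 CPM in wildtype embryos (log2 fold change -0.46, edgeR adjusted p = 0.00350). Its partner on the vesicle, vamp2, averaged 48.8 ± 2.75 CPM in mutants and 66.3 ± 7.77 CPM in wildtype embryos (-0.44, adjusted p = 0.00263). Not every neuron gene fell. The paralogue of snap25b, snap25a, averaged 122.7 ± 5.06 CPM in mutants and 116 ± 3.46 CPM in wildtype embryos (0.08, edgeR adjusted p = 0.484). Expression of elavl3 averaged 651.1 ± 14.9 CPM in mutants and 620.7 ± 7.44 CPM in wildtype embryos, also without passing (0.07, edgeR adjusted p = 0.487). The sodium pump gene atp1a3a fell by 0.29 on the log2 scale (adjusted p = 0.00844; 0.0691 without mutant replicate 3), and the tubulin gene tuba1a by 0.33 (adjusted p = 0.000984), on a row with non-whole counts in 6 libraries. The 35 rows summed to 5744.6, 5665.6 and 5537.1 CPM in mutants, against 6488.7, 6385.5 and 6036.8 CPM in wildtype embryos, without overlap. Most of this difference lay in the tubulin rows tuba1a, tuba1c and tubb5. They averaged 1091, 759.7 and 618.9 CPM in mutants, against 1374, 881.5 and 708.4 CPM in wildtype embryos. Their counts were not whole in 6, 6 and 3 libraries. The part of neuron number in the values of fabp7a, sox19b and nes was not tested.

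**Figure D5:**
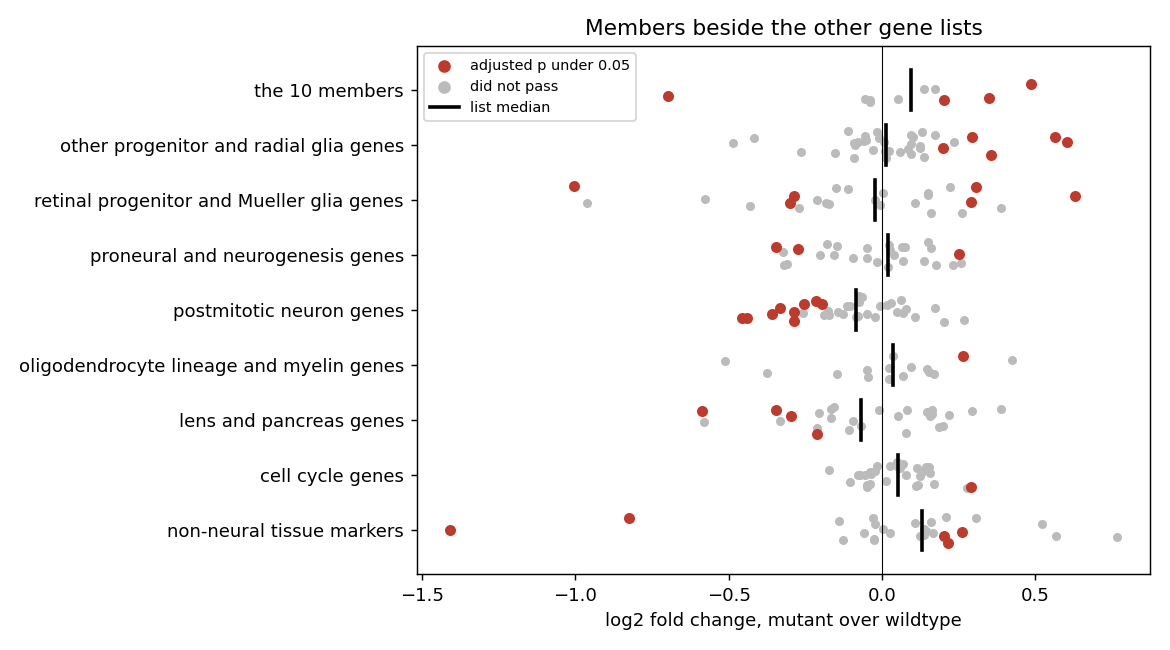
Log2 fold change of mutant over wildtype for every tested gene of the 10 members and 8 other lists (points; red: adjusted p under 0.05; black lines: list medians; vertical scatter within a list is only for legibility). Called members lie on both sides of 0, whereas all 9 called genes of postmitotic neurons lie below it.

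In the remaining neural and cell cycle lists the calls were few, beside 11.7% of all genes called in either direction. In the Pax6-related list of lens and pancreas genes, 14.8% were called, all of them lower. Of 15 oligodendrocyte lineage and myelin genes, 1 was higher (6.67%), the proteolipid gene plp1a (log2 fold change 0.26, edgeR adjusted p = 0.0440), whose call ended without mutant replicate 2 (0.211) or 3 (0.193) or wildtype replicate 1 (0.117) or 2 (0.139); pdgfra, for a growth factor receptor, stood at 0.10 (adjusted p = 0.458). Of 30 cell cycle genes, which dividing progenitors share with other dividing cells, 1 was higher (3.33%), the cyclin D1 gene ccnd1, also in the retinal list (0.29, adjusted p = 0.0185), and leaving out any library but wildtype replicate 3 ended its call (0.0533 to 0.115). The replication clamp gene pcna (-0.03, adjusted p = 0.783) and the proliferation marker mki67 (0.12, adjusted p = 0.323) did not pass. Of 27 lens and pancreas genes, tissues that also use Pax6, 0 were higher by edgeR (1 at an unadjusted p under 0.05; DESeq2 and limma-voom 0 each) and 4 lower (14.8%, beside 5.87% of all genes called lower): the somatostatin gene sst2 (-0.59, adjusted p = 0.0107), neurod1 again, the homeobox gene isl1 (-0.30, 0.0213) and the lens crystallin gene crygn2 (-0.21, 0.0375). The sst2 row has non-whole counts in 3 libraries. Which tissue the neurod1 and isl1 counts came from was not tested. At an unadjusted p under 0.05, 6 of this list were lower, beside 5160 of all 20229 genes in either direction. DESeq2 called 2 lower and limma-voom 4. Of the 27 fold changes, 12 were positive. The lens genes mipb (0.29, edgeR adjusted p = 0.382) and crybb1 (0.20, 0.777) were among these and did not pass. The pancreas genes ins, pdx1, gcga and gcgb did not pass (edgeR adjusted p = 0.5, 0.384, 0.529 and 0.836). Calls of sst2 ended without mutant replicate 3 (0.0600) or wildtype replicate 2 (0.0521), those of isl1 without any 1 mutant (0.0559 to 0.109) or wildtype replicate 1 (0.0548), and those of crygn2 without mutant replicate 2 (0.201) or 3 (0.178) or wildtype replicate 2 (0.0535) or 3 (0.0705).

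Outside the nervous system, 3 of 26 tissue markers were higher and 2 lower, 19.2% in all beside 11.7% of all genes. Without wildtype replicate 1, 10 were higher, beside 1376 of all genes. Without any 1 mutant or wildtype replicate 2, 0 to 1 were higher, beside 615 to 715 or 1086 of all genes. The myogenic factor genes myod1 and myog, of muscle precursors, fell by 1.41 and 0.83 on the log2 scale (edgeR adjusted p = 0.000105 and 0.000360), while desma, for the muscle filament desmin, rose by 0.22 (0.0282) and tp63, of basal epidermis, by 0.26 (0.0280). The desma call ended without any 1 mutant (0.0596 to 0.151) or wildtype replicate 2 (0.0640), and the tp63 call without any 1 mutant (0.0647 to 0.0942) or wildtype replicate 3 (0.0815).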

How the data were processed

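Per the submitters' processing notes, STAR, RSEM and DESeq2 were used with build danRer11; versions, annotation and strand setting are not given in the sources used here. The table that the authors deposited holds expected counts from RSEM, with genes in rows and libraries in columns and no scaling between them; 18.8% of its values are not whole (tolerance 0.005). Columns were matched to samples by genotype and number. Counts were rounded and fitted in R 4.3.3 with edgeR 4.0.16 (filterByExpr, minimum count 10, 20229 genes kept; TMM factors; quasi-likelihood test, robust), with Benjamini-Hochberg adjustment across every gene tested and calls at 0.05. Fold changes are log2 mutant over wildtype; SEs are the size of that value over the root of the F statistic, and 95% intervals use the fit's degrees of freedom. A count of 0 allows 3 counts, or 0.254 to 0.349 CPM; intervals cover no error that is shared by all libraries. Ratios of counts (pseudocount 0.5) had 2-sided exact permutation tests over 4 ratios. Replicate pairs differed by more than sampling noise (mean chi-square per gene 2.10 to 2.90 in mutants and 6.01 to 32.1 in wildtype embryos, over 17852 genes). No library was counted as a repeat, but these values do not separate variation among embryos from technical variation. Alternatives were other scalings, filters and weights, DESeq2 1.42.0, limma-voom (limma 3.58.1), the replicate block, each library left out, and summed paralogues; the her4 sum was added after seeing the data. The fit was tested on simulated data. Figures used Python 3.11.15 and matplotlib 3.10.9.

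The members and gene lists were chosen with earlier results of these data known. Named genes are all 10 members, dnajc21 and, per list, up to 4 called genes in order of adjusted p, or the 2 most abundant where fewer than 2 were called. Named outside this rule were fabp7b, msi2a, msi2b, the her4 copies, tuba1c, tubb5, snap25a, elavl3, mipb, crybb1, ins, pdx1, gcga and gcgb. The symbols msi1b, atoh1b, dcx, bfsp1 and isl1a matched no row. Counts were not divided by transcript length, so shares of counts and the ranking by abundance within a list are of counts, not of transcript levels per length. No genome of the build was used, so no positions are given.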

Additional observations from a re-analysis of the deposited data

How the results depend on the processing

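Under 15 alternative settings (other scalings, filters, weights and tests, the block, and each library left out) the calls of fabp7a (log2 fold changes of -0.772 to -0.619) and sox19b (0.432 to 0.543) held. That of nes held in 8 and that of sox19a in 6, with positive values throughout; sox2, sox3, gfap, pax6a and pax6b were called in 0. Values near 0 changed sign for gfap without wildtype replicate 2 (0.0134, lowest -0.1004 without another library), pax6a without wildtype replicate 1 (0.0246, lowest -0.0762) and pcna without mutant replicate 1 (0.0109, lowest -0.0602), and the difference in the log2 ratio of pax6a to pax6b without mutant replicate 1 (-0.0062) or wildtype replicate 2 (-0.0558); the cause was not tested. Over all genes, DESeq2 called 780 higher and 727 lower, against 1184 and 1188 by edgeR. The number of members called higher was 1 with library totals alone and 1 without robust weights.

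In the other lists, counts that changed by over 1.5 times were as follows. Other progenitor genes numbered 1 lower with no low-count filter, and retinal genes 1 higher without robust weights. Proneural genes called higher numbered 0 without robust weights, 0 by DESeq2, 0 by limma-voom and 2 under the replicate block, and those called lower 1 without robust weights, 1 by DESeq2 and 1 by limma-voom. Myelin genes called higher numbered 0 with library totals alone, 0 without robust weights and 0 by limma-voom, lens and pancreas genes called lower 2 by DESeq2, cell cycle genes called higher 0 without robust weights, and non-neural markers called higher 5 without robust weights and 6 by limma-voom.

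With 1 library left out, calls over all genes ran from 615 to 1376 higher and 627 to 1282 lower, and member calls from 1 to 3 higher. Ranges were 2 to 5 higher and 0 to 2 lower for other progenitor genes, 1 to 6 higher and 1 to 4 lower for retinal genes, 0 to 1 higher and 0 to 2 lower for proneural genes, 0 to 1 higher and 4 to 10 lower for neuron genes, 0 to 1 higher for myelin genes, 0 to 1 higher and 0 to 4 lower for lens and pancreas genes, 0 to 1 higher for cell cycle genes and 0 to 10 higher for non-neural markers. The difference in the log2 ratio of pax6a to pax6b ran from -0.0558 to 0.0865.

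Replicate numbers did not pair the libraries (correlations of same-numbered deviations of -0.050, -0.003 and 0.022). With the replicate number as a block, 1223 genes were higher and 1247 lower, and the sox19a call ended (adjusted p = 0.0545). The precision reached with 3 pools a group is given by the 95% intervals of sox2, sox3, gfap, pax6a and pax6b, all of which include 0.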
